A study of Rattus norvegicus with 2 samples.

Results

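The 8 genes described here are the peripheral myelin genes Pmp22, Mbp, Prx, Mag, Gjb1 and Cnp, together with Egr2 and Sox10, which encode transcription factors of the myelin program. They were picked by gene symbol, as every probe set that the array's probe-to-gene table assigns to 1 of these symbols alone, and all 8 were found among the 14217 genes with such a symbol, with 13 of the 31042 probe sets. Each probe set holds several short probes for the same transcript, and 1 signal stands for their joint brightness. Dorsal root ganglia (DRGs), which hold the cell bodies of sensory neurons (SNs), were taken from 4-week-old female Sprague-Dawley rats 14 days after 100000 cells of the bone-destroying rat lung carcinoma line IP-B12 had been placed in the marrow of the right tibia. RNA of DRGs from the right side, called the tumor side, went to 1 array, and RNA of DRGs from the left side, called the contralateral side and used by the study as the control, to 1 array. Both arrays therefore come from tumor-bearing animals, and neither the number of rats behind an array nor an injection of the left tibia is stated. A single array per side gives neither replicate error nor a test, so the differences below describe these 2 arrays alone.

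Schwann cells wrap the larger axons of sensory nerves in myelin, a many-layered sheath that insulates the axon between the nodes of Ranvier. In compact myelin the membrane layers are pressed together by proteins such as PMP22 and MBP, while paranodes, incisures and the outermost and innermost layers keep cytoplasm and hold other proteins. SOX10 is required for the identity of Schwann cells and acts with EGR2, also known as Krox20, to turn on and maintain myelin genes. In a ganglion, myelinating Schwann cells lie around the axons, and satellite glia, which also express Sox10 but form no myelin sheath, surround the neuronal cell bodies. In whole ganglia, fewer Schwann cells and less RNA of a gene per Schwann cell cannot be told apart.

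The median signal of all probe sets was 69.0 on the contralateral array and 72.7 on the tumor array, in the arbitrary brightness units of MAS 5.0. All 8 genes were above the signal rule, which keeps a gene if the higher of its 2 signals reaches the median of its array, and 7 of them reached it on both arrays. Over the 9695 genes above the rule the median log2 ratio of the tumor side over the contralateral side was 0.08, and 70.9% of these genes had a ratio above 0, so that a gene in the middle of the array read as slightly higher on the tumor side. Among probe sets with a mean signal above 6000, 195 in number, that median was 0.0075, against 0.088 for the 2070 probe sets between 1000 and 3000. For actin, the signal of the 3′ probe set was 8.79 times that of the 5′ probe set on the contralateral array and 9.22 times on the tumor array, a ratio that grows as RNA is degraded or labelled short, and for GAPDH the same ratios were 1.196 and 1.229.

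None of the 8 genes reached a fold of 1.5 in either direction, a size that 1.19% of the genes above the rule reached upward and 0.743% downward. At a fold of 1.2 on the brightest probe sets, 0 of the 8 genes were higher on the tumor side, against 12.0% of the genes above the rule, and 1 was lower, Gjb1, against 3.99%. That 0 depended on the choice of probe set, since dimmer probe sets of Mbp and Cnp, both above the rule, were 1.29 and 1.30 times higher. The 8 log2 ratios ran from -0.41 for Gjb1 to 0.26 for Mag, with 4 above and 4 below 0, and their median was -0.00060. Set against the median gene at 0.08, 3 of the 8 were higher and 5 were lower. The lean of the list depended on the probe sets used, since the median over genes was 0.15 when all probe sets of a gene were averaged.

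**Figure D1:**
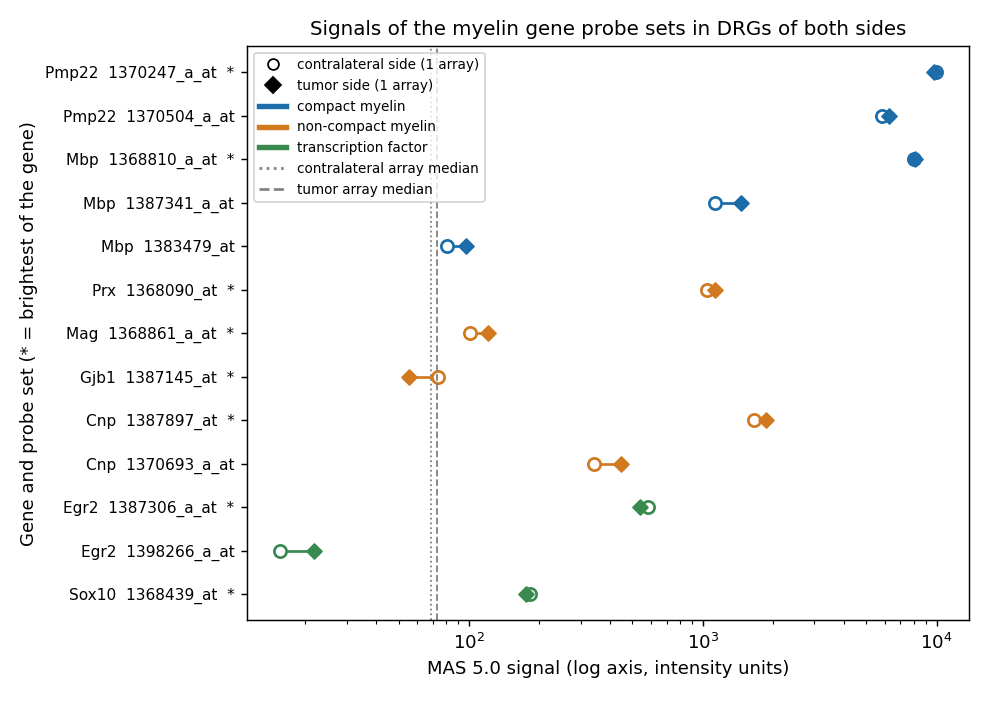
MAS 5.0 signal on a log axis for each of the 13 probe sets, with an open circle for the contralateral array, a diamond for the tumor-side array and a star at the brightest probe set of a gene. The symbols of the brightest Pmp22, Mbp and Sox10 probe sets overlap, and the brightest Gjb1 and Egr2 probe sets lie to the left on the tumor side.

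Of the compact myelin genes, Pmp22 encodes a small membrane protein whose gene dosage sets the stability of peripheral myelin. Its brightest probe set (1370247_a_at) had a signal of 9904 on the contralateral side and 9762 on the tumor side, a log2 ratio of -0.021. Its other probe set (1370504_a_at) had 5858 and 6229, a log2 ratio of 0.089. The probe sets thus pointed in opposite directions, at small sizes, and their mean was 0.034. Both carry the ending _a_at, by which the array's maker marks probe sets that match several transcripts of 1 gene.

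Mbp encodes myelin basic protein, which holds the cytoplasmic faces of the membrane together. Its brightest probe set (1368810_a_at) had 7967 on the contralateral side and 8077 on the tumor side, a log2 ratio of 0.020. The next probe set (1387341_a_at) had 1132 and 1455, 1.29 times as much on the tumor side, with a log2 ratio of 0.36. The dimmest (1383479_at) had 80.9 and 96.8, a log2 ratio of 0.26. All 3 were higher on the tumor side, but the size of the difference was not shared between them, and median centring and loess turned the brightest to -0.060 and -0.029. The middle probe set was the only one of the 13 to lie outside the middle 95% of its 500 neighbours in mean signal, whose log2 ratios ran from -0.11 to 0.29. For the brightest probe sets of Pmp22 and Mbp the nearest 500 are the brightest 500 on the arrays, with a middle 95% from -0.089 to 0.18.

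The genes of non-compact myelin did not share a direction. Prx encodes periaxin, a scaffold that links the outer Schwann cell membrane to the basal lamina. Its only probe set (1368090_at) had 1044 and 1132, a log2 ratio of 0.12, near the median gene. Mag encodes myelin-associated glycoprotein, an adhesion protein of the membrane that faces the axon. Its only probe set (1368861_a_at) had 101 on the contralateral side and 121 on the tumor side, 1.19 times higher (log2 ratio 0.26), just under a fold of 1.2. At the signal of Mag, probe sets of the same gene differed from each other with an SD of 0.24 in log2 ratio over 569 genes, close to the size of the log2 ratio of Mag.

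Cnp encodes CNPase, an enzyme that keeps cytoplasmic channels in the sheath open. Its brightest probe set (1387897_at) had 1663 and 1867, a log2 ratio of 0.17. Its other probe set (1370693_a_at) had 343 and 446, 1.30 times as much on the tumor side, with a log2 ratio of 0.38. Both exceeded the median gene, by 0.086 and 0.30. The SD between probe sets of the same gene was 0.073 at the signal of the brighter one and 0.13 at that of the dimmer one.

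Gjb1 encodes a connexin that forms gap junctions across the layers of the sheath. Its only probe set (1387145_at) had 73.6 on the contralateral side and 55.3 on the tumor side, 1.33 times lower on the tumor side (log2 ratio -0.41). It was the only one of the 8 genes that met the signal rule through the contralateral side alone, and its tumor-side signal lay at percentile 45.7 of its array. At this signal the SD between probe sets of the same gene was 0.32, and the middle 95% of the 500 nearest probe sets ran from -0.59 to 0.77. Gjb1 was lower than most probe sets of its brightness and inside that range. Without it, the median of the other 7 genes was 0.020.

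Both transcription factor genes had a slightly lower signal on the tumor side on their brightest probe set. Egr2 had 585 and 538 (1387306_a_at), a log2 ratio of -0.12, which is 0.20 below the median gene, with an SD between probe sets of the same gene of 0.13 at that signal. Its other probe set (1398266_a_at), the only one of the 13 below the signal rule, had 15.5 and 21.7, a log2 ratio of 0.48 where that SD was 0.78. The mean over both, 0.18, has the opposite sign to the brighter one. Sox10 had 182 and 176 on its only probe set (1368439_at), a log2 ratio of -0.051, within the SD of 0.19 at its signal.

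**Figure D2:**
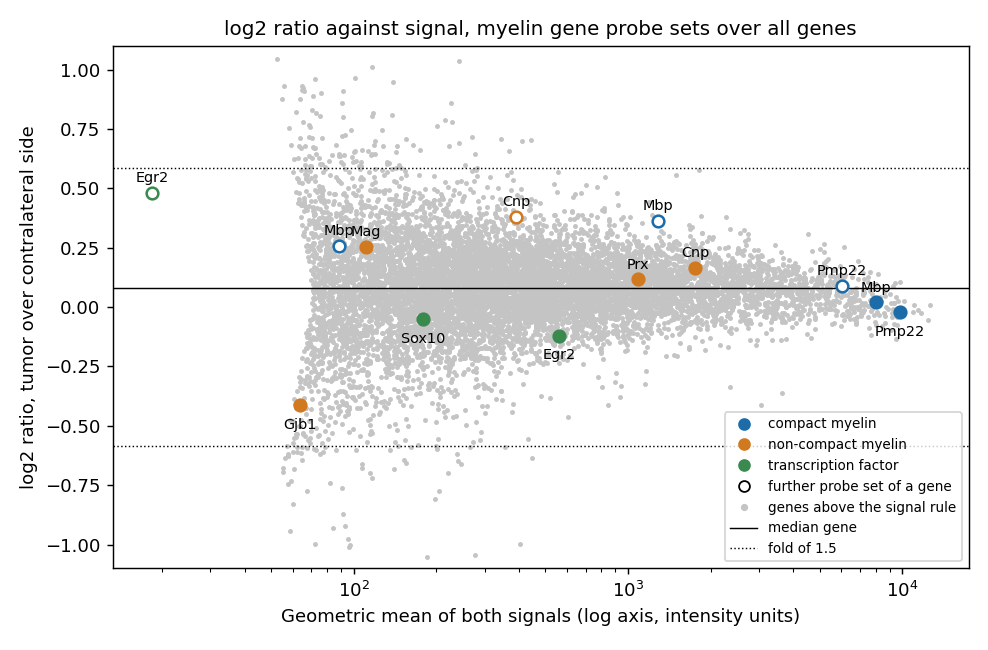
log2 ratio of the tumor side over the contralateral side against mean signal (geometric, log axis), with grey points for the genes above the signal rule (24 lie beyond the vertical axis), filled points for the brightest probe set of each myelin gene and open points for the others. The solid line is the median gene at 0.08 and the dotted lines a fold of 1.5, and all 13 probe sets lie between the dotted lines, Gjb1 lowest.

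Where a gene had more than 1 probe set, the brightest gave the lowest log2 ratio. This held for all 4 such genes, Pmp22, Mbp, Cnp and Egr2. With probe sets below the signal rule left out, as for the second one of Egr2, 3 of these genes remain, and it held for all 3, against 51.0% of the 2201 genes with more than 1 probe set above the rule. Over all 13 probe sets, 9 were higher and 4 lower on the tumor side, with a median log2 ratio of 0.12. The brightest probe sets of all 8 genes lay inside the middle 95% of the 500 probe sets nearest in signal.

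**Figure D3:**
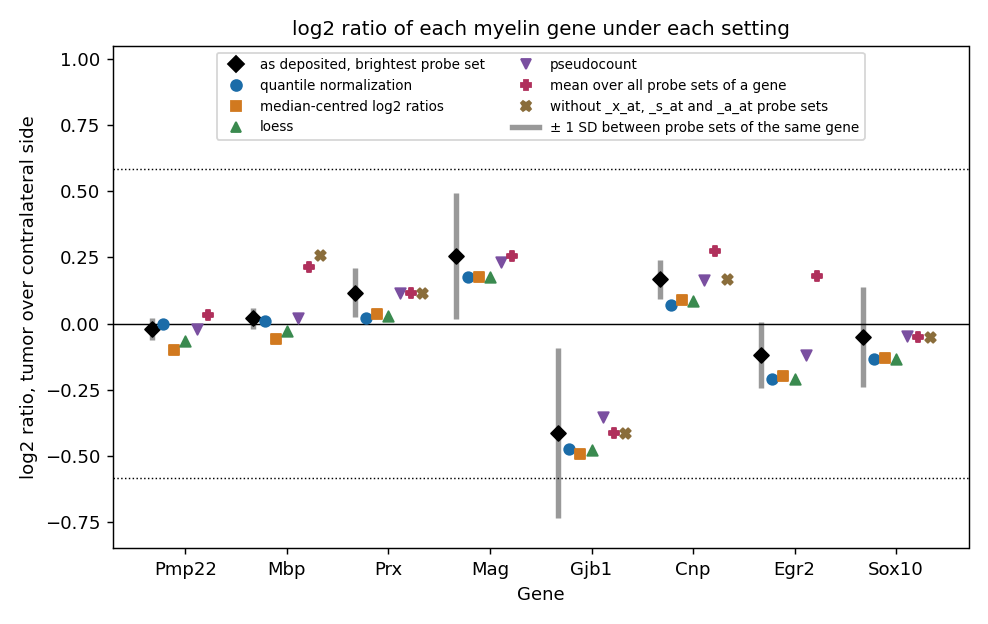
log2 ratio of each myelin gene as deposited (black diamond) and under 6 other settings, with a grey bar for 1 SD between probe sets of the same gene on either side of the deposited value, a line at 0 and dotted lines at a fold of 1.5. Gjb1 stays between -0.49 and -0.35 and Mag between 0.18 and 0.26, while Pmp22, Mbp and Egr2 have points on both sides of 0.

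The promoters of Mag and Cnp, the genes with the highest ratios, and of Gjb1, the gene with the lowest, are shown from the RefSeq annotation of the rat assembly GRCr8, from 250 bases before to 50 bases after the annotated start. Capitals mark matches on either strand to ACAAAG, a core that SOX proteins bind, and to GTGGGNG, a core that EGR proteins bind. Mag lies on the minus strand at chr1:95290995-95291294, Cnp on the plus strand at chr10:86011254-86011553 and Gjb1 on the plus strand at chrX:70541595-70541894, each window printed in the direction of its gene.
Mag: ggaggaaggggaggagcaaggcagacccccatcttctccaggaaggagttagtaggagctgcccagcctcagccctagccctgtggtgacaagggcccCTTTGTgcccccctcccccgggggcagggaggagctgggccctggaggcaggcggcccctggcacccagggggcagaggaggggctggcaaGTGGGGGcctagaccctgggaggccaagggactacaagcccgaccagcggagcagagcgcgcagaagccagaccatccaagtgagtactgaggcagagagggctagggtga
Cnp: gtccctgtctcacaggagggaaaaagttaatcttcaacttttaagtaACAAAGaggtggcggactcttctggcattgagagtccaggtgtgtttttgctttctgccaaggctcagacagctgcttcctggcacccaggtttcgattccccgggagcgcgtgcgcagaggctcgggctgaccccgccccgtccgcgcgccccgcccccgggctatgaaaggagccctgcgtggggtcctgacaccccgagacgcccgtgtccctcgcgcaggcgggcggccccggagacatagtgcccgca
Gjb1: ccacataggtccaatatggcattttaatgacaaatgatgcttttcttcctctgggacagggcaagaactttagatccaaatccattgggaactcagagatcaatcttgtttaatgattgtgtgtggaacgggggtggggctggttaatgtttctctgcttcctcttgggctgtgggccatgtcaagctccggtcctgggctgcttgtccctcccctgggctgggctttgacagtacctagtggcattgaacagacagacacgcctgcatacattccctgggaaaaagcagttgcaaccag

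The window of Mag holds both cores, with ACAAAG on the opposite strand and GTGGGNG on the strand of the gene, the window of Cnp holds ACAAAG, and that of Gjb1 holds neither. Of the 8 genes, 7 had a promoter in the table, with 8 windows because Mbp has more than 1 start, and Sox10 had none. ACAAAG was found in 3 of the 8 windows (Cnp, Mag and Mbp) and in 18.8% of all 33465 windows, and GTGGGNG in 3 of the 8 (Mag, Mbp and Prx) and in 28.9% of all. The cores do not overlap each other in these windows. A match is a run of letters and was not tied to binding, and high and low ratios were not compared by motif, since the list is short and its ratios have no replicate error.

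Other genes of the myelin sheath had log2 ratios mostly above that of the median gene. Of 12 listed, 8 were found and 7 were above the signal rule. All 7 had a log2 ratio above 0, as had 70.9% of all genes above the rule. Their median was 0.21, against 0.08 for all genes above the rule. Pllp, which encodes the myelin membrane protein plasmolipin, had 404 and 515 (log2 ratio 0.35), and Pmp2, which encodes a fatty acid carrier of myelin, had 2489 and 3039 (log2 ratio 0.29). The smallest ratios were those of the tetraspanins Cd9, with 5933 and 6240 (log2 ratio 0.073), and Tspan2, with 1086 and 1197 (log2 ratio 0.14). None reached a fold of 1.5, and 3 of the 7 reached a fold of 1.2 upward, against 12.0% of the genes above the rule. Cadm4, which was found but lay below the rule, went the other way with 58.0 and 46.7 (log2 ratio -0.31). The listed genes that were not found were not analysed here.

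Enzymes of myelin lipid synthesis were mixed. The 7 of 8 listed genes that were found had a median log2 ratio of 0.099, with 4 above and 3 below 0. Ugt8, which makes the galactolipid of myelin, had 1104 and 1423 (log2 ratio 0.37), and Gal3st1, which sulfates that lipid, had 154 and 184 (log2 ratio 0.26). The cholesterol synthesis genes Dhcr7, with 679 and 650 (log2 ratio -0.064), and Cyp51, with 4305 and 4163 (log2 ratio -0.048), were lowest, and a second probe set of Cyp51 went the other way with 0.097. Only Ugt8 and Gal3st1 of the 7 reached a fold of 1.2, both upward, a size that 12.0% of the genes above the rule reached upward.

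Genes of the node and paranode, where the sheath meets the axon, were close to 0 on their brightest probe sets, though not on all others. The 5 above the rule had a median log2 ratio of 0.0069, from Cntnap1, an axonal protein of the paranode, with 216 and 203 (log2 ratio -0.092), to Ank3, which anchors sodium channels at the node, with 1613 and 1709 (log2 ratio 0.084). Nfasc, an adhesion gene of node and paranode, had 739 and 711 (log2 ratio -0.056), while its second probe set above the rule went the other way with 71.7 and 96.1, a log2 ratio of 0.42. Nrcam, its partner at the node, had 797 and 801 (log2 ratio 0.0075). The second probe set of Ank3 had 387 and 538, a log2 ratio of 0.48. Of 12 signals and regulators of Schwann cells, 8 were above the rule. On their brightest probe sets all 8 lay between 0.0059 for Nrg1, the axonal growth factor that controls myelin thickness, and 0.12 for Adam22, Adgrg6 and Pou3f1. Some second probe sets above the rule lay outside that range, with 0.32 for Adgrg6 and -0.16 for Adam22. Those of Nab1 and Zeb2 lay inside it, at 0.082 and 0.080, while a further one of Zeb2 had 0.16. Adgrg6 encodes an adhesion receptor needed for myelination and had 381 and 413, and Pou3f1, a transcription factor that precedes Egr2, had 176 and 191. Yy1, a general transcription factor, was next to Nrg1 with 893 and 924 (log2 ratio 0.049). Nrg1 had 565 and 567 on the brightest of its probe sets, and the other 4 probe sets above the rule ranged from -0.20 to 0.59. The receptor genes Erbb2 and Erbb3 were below the rule.

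Genes of immature and repair Schwann cells, which are raised when myelin is lost, had a median log2 ratio of 0.034 over the 8 of 12 above the rule. Sox2, which holds Schwann cells in an immature state, had 418 and 509 (log2 ratio 0.28), and Jun, the main driver of the repair state, had 823 and 931 (log2 ratio 0.18), with 0.0072 and 0.057 on its other probe sets. Gap43, a growth protein that neurons also express, had 3935 and 3582 (log2 ratio -0.14), and L1cam, an adhesion protein of non-myelinating Schwann cells and axons, had 769 and 708 (log2 ratio -0.12). Only Sox2 of the 8 reached a fold of 1.2, upward, a size that 12.0% of the genes above the rule reached upward. Gfap, Shh, Olig1 and Gdnf were below the rule.

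**Figure D4:**
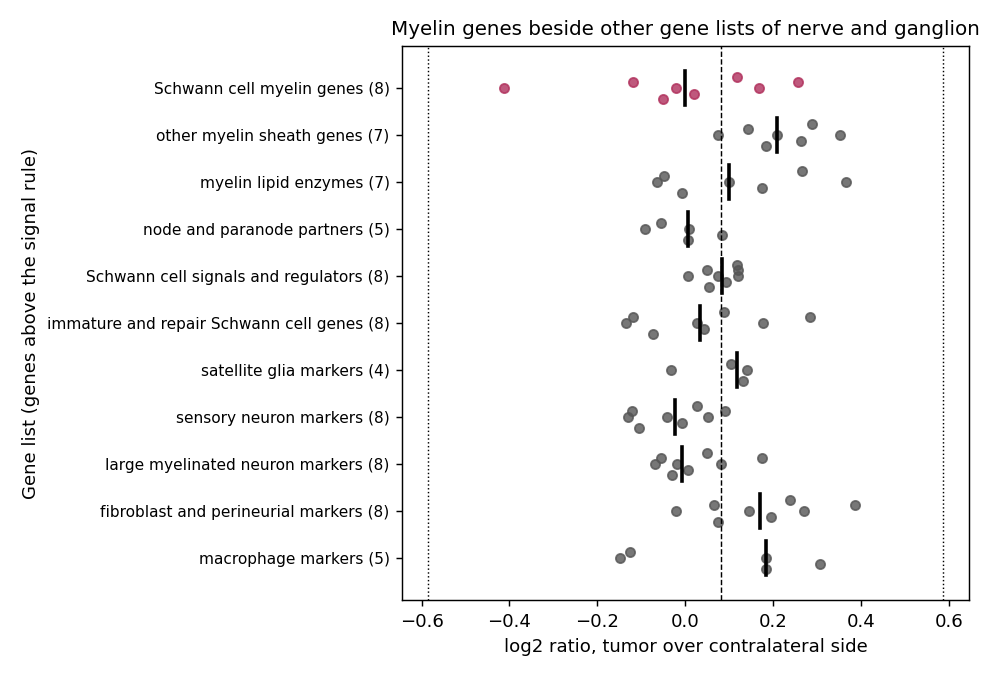
log2 ratio of the tumor side over the contralateral side for single genes (points) of each list, limited to those above the signal rule and counted in brackets, with a bar at the list's median, a dashed line at the median gene (0.08) and dotted lines at a fold of 1.5. The Schwann cell myelin genes (red) have a median near 0 and a range from -0.41 to 0.26. This range is the widest of the lists drawn through Gjb1 alone, as the next lowest gene is Egr2 at -0.12. The other myelin sheath genes have a median of 0.21, and the skeletal muscle and oligodendrocyte lists are not drawn.

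Mbp, Mag and Cnp are also genes of oligodendrocytes, the myelinating cells of the central nervous system. All 6 oligodendrocyte markers were below the signal rule, none exceeding 38.2 on the contralateral side or 33.6 on the tumor side, with summed signals of 99.1 and 118. Satellite glia markers, 4 of 5 above the rule, had a median log2 ratio of 0.12. Markers of large neurons with myelinated axons, all 8 above the rule, had a median of -0.0068, and SN markers in general, 8 of 8 above the rule, had -0.024. Markers of fibroblasts and perineurium had a median of 0.17 over 8 genes, with summed signals of 30848 and 33258. Macrophage markers were split, with 3 of the 5 above the rule higher and 2 lower on the tumor side, and a median of 0.18. Their summed signals, 941 and 1062, cover all 6 macrophage markers found, 1 of them below the rule. All 6 skeletal muscle markers had a tumor-side signal at most 0.5 of the contralateral one, with summed signals of 1088 and 344. Most of them met the signal rule through the contralateral side alone, and the list was chosen with earlier results of these data known. The part of these differences in the myelin gene values was not tested.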

How the data were processed

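RNA of DRGs (100 ng total RNA per array, per the labels) was hybridized to Affymetrix GeneChip rat genome arrays, 1 per side. The authors derived the deposited signal intensity values with MAS 5.0 default settings, named MAS5 in the submitters' processing notes. Background correction and the summary of probes are part of these values, which are linear, and how they were scaled is not given. The authors' values were used without further normalization. log2 ratios were taken without a pseudocount, and the brightest probe set by mean log2 signal stood for its gene.

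Beside 57 control probe sets, 20826 probe sets had 1 symbol, 436 several, and 9780 were unnamed here. By gene identifier 20758 of the 20826 matched RefSeq, all with the same symbol. As a technical spread, log2 ratios were compared within genes, as the pooled SD over probe sets whose mean signals lay within a fold of 2 of the stated signal. No test was made. Only 2 arrays limit the precision. All probe sets of the 8 genes were named. Of each other list, the up to 2 genes with the largest and the smallest ratios above the signal rule were named. Cell type markers are the exception and are given by values of whole lists, without naming single genes. Pou3f1, Drp2, Cadm4, Nab1, Zeb2, Erbb2, Erbb3, Gfap, Shh, Olig1 and Gdnf were named after their values were seen. The members and lists were chosen with earlier results of these data known. Alternatives were quantile normalization, median centring, loess (span 0.3), a pseudocount of 11.1 (percentile 20 of all signals), the mean over all probe sets, leaving out probe sets ending in _x_at, _s_at or _a_at, and folds of 1.2 and 2. The code was tested on simulated data with known fold changes. Computations used statsmodels 0.14.6, pandas 2.3.3 and numpy 2.4.6 under Python 3.11.15, with figures drawn in matplotlib 3.10.9.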

Additional observations from a re-analysis of the deposited data

How the results depend on the processing

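Single genes had 45 values under other settings, of which 32 stayed within 1 SD between probe sets of 1 gene and 13 did not. Median centring moved Pmp22 to -0.10, Mbp to -0.060 and Cnp to 0.087, loess moved them to -0.064, -0.029 and 0.086, and quantile normalization moved Prx to 0.022 and Cnp to 0.072. Centring takes 0.08 from every log2 ratio. Averaging the probe sets of each gene gave 0.034 for Pmp22, 0.21 for Mbp, 0.27 for Cnp and 0.18 for Egr2. Without probe sets ending in _x_at, _s_at or _a_at, Mbp had 0.26 on its dimmest probe set, and Pmp22, Mag and Egr2 gave no value. The median log2 ratio of the list was 0.15 with the mean over all probe sets and 0.12 over the 5 genes left without those endings. It was 0.12 over all 13 probe sets and 0.020 without Gjb1, both chosen after seeing the data, and -0.080 with median centring, -0.047 with loess and 0.0041 with quantile normalization. No gene reached a fold of 1.5 under any of the 6 normalization and probe set alternatives. The fold of 1.2 was counted on the deposited values alone, where 0 genes were higher and 1 was lower. Cnp, at 0.27 with the mean over all probe sets, exceeded that fold upward. Without the signal filter 7.97% of all genes were at least 1.5 times higher and 6.25% at least 1.5 times lower. Of 83 medians of the other lists, 75 moved by less than the spread and 8 by more. No paired analysis was possible because there is only 1 array for each side. Low signal widens the scatter, as the SD between probe sets of the same gene was 0.039 at the signal of Mbp and 0.32 at that of Gjb1.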

Other observations

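The brightest probe set of Drp2, which encodes a partner of periaxin at the outer Schwann cell membrane, had 928 and 1114 (log2 ratio 0.26). Of its other 4, all below the signal rule, those with 36.5 and 64.8 and with 26.7 and 36.8 had log2 ratios of 0.83 and 0.46. The remaining pair had contralateral signals of 4.66 and 3.02, below the 5.39 of the brightest trp control probe set on that array, so that their ratios are not given.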
